A study of Homo sapiens with 38 samples.

Results

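The BH3-only genes are 8 members of the BCL2 family, BCL2L11, BMF, BBC3, PMAIP1, HRK, BID, BIK and BAD, taken as a fixed list of names and read through every probe set that names 1 of them alone. Of the 8 genes, 7 had such a probe set, 22 probe sets in all, out of 19775 genes and 41097 probe sets that name 1 gene. BBC3 (PUMA, a target of p53) was covered by 1 probe set that also names other genes, so that no value is given for it. The arrays were 38 one-colour Affymetrix arrays, 18 of A375, a human melanoma cell line here called parental, and 20 of 16R6-4, 1 clone derived from A375 that is resistant to GSK2118436 and is here called resistant. Each line was exposed for 24 hours to DMSO, to 0.1 or 1 uM GSK436 (GSK2118436, dabrafenib, a RAF kinase inhibitor), to 10 or 30 nM GSK212 (GSK1120212, trametinib, an inhibitor of the kinase MEK), or to 10 nM GSK212 together with 0.1 or 1 uM GSK436. Parental cells had 3 arrays with DMSO, with 10 nM GSK212 and with each combination, and 2 with 0.1 uM GSK436, 1 uM GSK436 and 30 nM GSK212. Resistant cells had 2 arrays with DMSO and 3 with each drug treatment. The resistant line is a single clone, so that a difference between the lines is a difference between A375 and that clone. No label states that a group's arrays come from separate cultures, and p-values measure only the spread between these arrays.

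BH3-only proteins are the upstream triggers of mitochondrial cell death. They bind the survival proteins of the BCL2 family (BCL2, BCL2L1, MCL1 and others) through a short helix, the BH3 domain, and some also bind the effectors BAX and BAK1 directly, which then open the outer mitochondrial membrane and release cytochrome c. In melanoma cells with a mutated BRAF the kinase ERK holds several of these proteins down: it marks BIM, the product of BCL2L11, for degradation, and signalling through it is known to hold down BMF. Arrays measure RNA only, so that control of these proteins after transcription is not seen here.

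Sequence before the start site is shown for BMF and PMAIP1, the members with the largest differences in either direction, and for BCL2L11, the member best known as an ERK target. Each stretch is the 250 bases before the gene's first listed RefSeq start (GRCh38.p14), 5′ to 3′ on the gene's strand, and capitals mark matches to the motifs named after it.
BMF, chr15:40108880-40109129, minus strand: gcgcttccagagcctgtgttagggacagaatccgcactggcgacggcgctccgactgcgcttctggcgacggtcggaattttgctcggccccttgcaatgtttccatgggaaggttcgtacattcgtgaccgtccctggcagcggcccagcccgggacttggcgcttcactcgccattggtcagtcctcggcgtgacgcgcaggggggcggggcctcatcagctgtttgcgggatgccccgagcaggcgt
PMAIP1, chr18:59899746-59899995, plus strand: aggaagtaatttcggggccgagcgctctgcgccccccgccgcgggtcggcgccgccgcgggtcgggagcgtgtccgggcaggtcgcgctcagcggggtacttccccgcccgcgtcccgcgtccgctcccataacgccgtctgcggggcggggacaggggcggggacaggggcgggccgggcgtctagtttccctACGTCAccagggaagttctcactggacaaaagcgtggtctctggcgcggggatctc
BCL2L11, chr2:111120664-111120913, plus strand: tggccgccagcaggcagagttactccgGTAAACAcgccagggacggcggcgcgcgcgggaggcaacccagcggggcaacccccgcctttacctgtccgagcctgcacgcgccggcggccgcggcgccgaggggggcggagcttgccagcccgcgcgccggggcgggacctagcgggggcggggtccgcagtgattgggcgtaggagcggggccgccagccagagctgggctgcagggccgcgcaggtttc
Both strands of each window were searched for the forkhead core GTAAACA, the CRE-like core TGACGT and the E-box CACGTG. The BCL2L11 window held 1 forkhead core, 223 to 217 bases before the start, a sequence found in 2.98% of 35116 such windows. The PMAIP1 window held 1 CRE-like core, on the reverse strand 56 to 51 bases before the start, and 7.1% of all windows held one. The BMF window held none of these letters. The GC box GGGCGG, left in lower case, occurred once in the BMF window, 3 times in that of BCL2L11 and 4 times in that of PMAIP1, and in 42.6% of all windows. These matches describe the letters of the windows and no binding was measured.

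The gene bodies lie on 8 stretches of GRCh38.p14. BCL2L11 is at chr2:111120914-111168445 and was read by 7 probe sets. BMF is at chr15:40087890-40108879 with 1 probe set, and PMAIP1 is at chr18:59899996-59904305 with 2. HRK is at chr12:116856144-116881441 with 5 probe sets. BID, at chr22:17734138-17774665 with 3, and BIK, at chr22:43110750-43129712 with 1, share a chromosome. BAD is at chr11:64269828-64284704 with 3 probe sets, and BBC3 is at chr19:47220824-47232860. All 22 probe sets passed the filter on low values, and unless another is named, each gene is given by its probe set of highest mean.

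The values are MAS5 signals, a summary of the brightness of a probe set on a linear scale, and all arrays had been scaled to a like trimmed mean of 149.84 to 149.96. Differences are given as log2 folds of the signal plus 2.8 with their standard error (SE), and a gene is called higher or lower at an adjusted p under 0.05 (limma, Benjamini-Hochberg over 35888 probe sets) with an absolute log2 fold of at least 1. Across all 18063 genes the median log2 fold against DMSO was not 0 but 0.17 to 0.39 in parental and 0.05 to 0.22 in resistant cells, and after centring each array on its median it was -0.35 to -0.11 and -0.25 to -0.14, so that small folds depend on the scaling. DUSP6, a phosphatase gene that follows ERK activity, served as the check of the drugs. It was lower with all 6 parental treatments (log2 fold -7.56 to -4.83) and with the 4 resistant treatments that contain GSK212 (-6.60 to -4.68), while with GSK436 alone the resistant clone gave -0.14 and -0.79 (adjusted p = 0.983 and 1). The 3′ over 5′ signal of actin, a control that climbs when RNA is degraded, ranged from 3.715 to 44.982 and was over 20 on 15 arrays, among them all 4 parental arrays with GSK436 alone and none with DMSO. SOX10 and MIA, markers of melanoma cells, read 426.58 to 1414.21 and 1393.27 to 3992.93 in the parental line but at most 20.96 and 73.24 in the resistant clone. MITF read 282.73 to 733.84 in the parental line and 864.17 to 1678.88 in the clone, without overlap. PMEL, MLANA and TYR did not exceed 78.23 in either line. CSPG4 read at least 97.1 in both, while S100B, S100A1 and TYRP1 read at most 23.78, 29.69 and 48.85 in the clone. The labelled melanoma identity thus rests on SOX10, MIA, MITF and CSPG4 in the parental line, and on MITF and CSPG4 alone in the clone.

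In the parental line, drug treatment was accompanied by a rise of BMF and BIK and a fall of PMAIP1 in each of the 6 comparisons with DMSO, and by a rise of HRK in 2 of them. Counted over 7 measured members and 6 comparisons, 20 of 42 pairs were called, 14 higher and 6 lower, against 13.6% of all pairs of a gene and a comparison. Higher calls made up 8.58% and lower calls 5.01% of all such pairs. After centring each array on its median the count was 21, 12 higher and 9 lower. By comparison, 3 members were called with 0.1 uM GSK436 (16.7% of all genes), 4 with 1 uM GSK436 (18.3%), 3 with 10 nM GSK212 (11.2%), 3 with 30 nM GSK212 (9.22%), 3 with 10 nM GSK212 and 0.1 uM GSK436 (10.1%), and 4 with 10 nM GSK212 and 1 uM GSK436 (16.1%). The median log2 fold over the 7 members was 0.86, 0.80, 0.56, 0.42, 0.56 and 0.86 in that order, and over all genes 0.39, 0.39, 0.17, 0.23, 0.23 and 0.34. Over the 22 probe sets of the members, 7, 8, 4, 4, 5 and 10 were called in that order, beside 14.2%, 15.2%, 8.94%, 7.18%, 8.07% and 13.8% of all probe sets tested. These 6 comparisons share the same 3 DMSO arrays and are not independent of each other. In bulk RNA, fewer cells of a kind and less RNA per cell cannot be told apart.

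**Figure D1:**
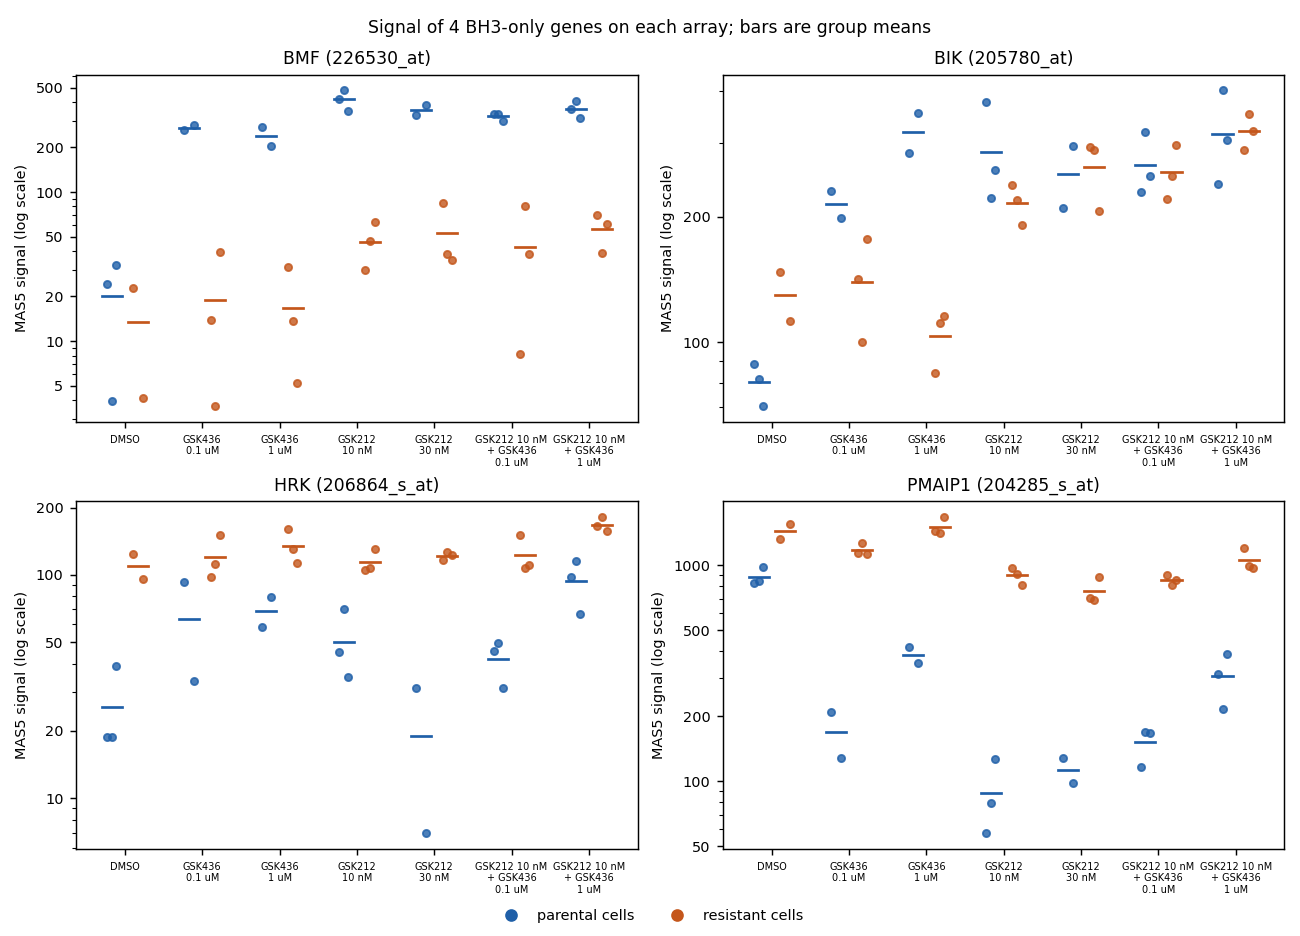
MAS5 signal (log scale) of BMF, BIK, HRK and PMAIP1 on each array, by treatment, with parental cells in blue and resistant cells in orange, and bars at the group means. All 15 parental drug arrays of BMF sit between 202.83 and 481.56, above every other array, and all 15 of PMAIP1 sit between 57.48 and 416.6, below every other array.

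BMF encodes a sensitiser that is held at the actin and myosin network until it is freed, and it showed the largest difference of the 7 members. On the 3 parental DMSO arrays it read 24.07, 3.94 and 32.27, all below the pooled median of 34.88 over all probe sets and arrays. With GSK436 it read 259.93 and 281.28 at 0.1 uM, and 274.51 and 202.83 at 1 uM. With GSK212 it read 422.22, 481.56 and 351.84 at 10 nM, and 328.33 and 386.04 at 30 nM. A reading near background thus became a clear signal with either drug alone. The combination with 0.1 uM GSK436 gave 334.64, 334.01 and 300.85. That with 1 uM GSK436 gave 359.43, 405.92 and 315.56. Every one of the 15 drug arrays lay above every DMSO array, with no overlap. The log2 fold was 3.88 ± 0.70 (SE; 14.8-fold; limma adjusted p = 0.000126) with 0.1 uM GSK436 and 3.69 ± 0.70 (12.9-fold; adjusted p = 0.000181) with 1 uM. It was 4.50 ± 0.62 (22.6-fold; adjusted p = 1.49e-06) with 10 nM GSK212 and 4.28 ± 0.70 (19.4-fold; adjusted p = 3.18e-05) with 30 nM. The combinations gave 4.14 ± 0.62 (17.6-fold; adjusted p = 6.96e-06) and 4.29 ± 0.62 (19.5-fold; adjusted p = 3.1e-06). Because the DMSO values are close to background, the size depends on the constant added: it ran from 4.02 to 4.84 with none and from 3.19 to 3.97 with a constant of 9.88, and all 6 calls were kept under both. Without parental DMSO replicate 2, the lowest array, the 6 folds were 3.15, 2.96, 3.77, 3.55, 3.41 and 3.56 in the order above, all called.

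BIK, a BH3-only protein that sits mainly at the endoplasmic reticulum, rose in the same 6 comparisons but from a level that was already measurable. Parental DMSO arrays read 88.84, 81.75 and 70.25. GSK436 gave 230.25 and 198.88 at 0.1 uM, and 284.26 and 354.65 at 1 uM. GSK212 gave 376.01, 222.2 and 259.45 at 10 nM, and 210.11 and 296.15 at 30 nM. Each of these arrays was above each DMSO array. The combination with 0.1 uM GSK436 gave 229.86, 319.08 and 250.33, and that with 1 uM gave 239.16, 402.12 and 305.63. No drug group overlapped DMSO. Among the drug groups, 0.1 uM GSK436 alone lay wholly below 1 uM GSK436 alone and below 10 nM GSK212 with 1 uM GSK436, while the combinations overlapped each other. Log2 folds were 1.39 ± 0.26 and 1.95 ± 0.26 for 0.1 and 1 uM GSK436 (limma adjusted p = 0.000225 and 1.16e-06). They were 1.77 ± 0.23 and 1.61 ± 0.26 for 10 and 30 nM GSK212 (adjusted p = 6.17e-07 and 2.94e-05). The combinations gave 1.69 ± 0.23 and 1.91 ± 0.23 (adjusted p = 1.63e-06 and 1.29e-07). Centring each array on its median lowered the range to 0.65 to 1.48 and ended 1 of the 6 calls, that for 0.1 uM GSK436.

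HRK (Harakiri), best known from neurons deprived of growth factors, rose with 1 uM GSK436, alone or with GSK212. The parental DMSO arrays read 18.75, 18.72 and 39.26. With 1 uM GSK436 the readings were 58.47 and 79.84, and with 10 nM GSK212 and 1 uM GSK436 they were 98.1, 115.42 and 66.55. Both groups lay wholly above DMSO. The log2 folds were 1.40 ± 0.42 (limma adjusted p = 0.0149) and 1.80 ± 0.38 (adjusted p = 0.000541). The first call was lost after quantile normalization, after centring (0.77), with only the groups compared in the fit, and without parental DMSO replicate 1 (1.24), parental DMSO replicate 2 (1.24) or parental 1 uM GSK436 replicate 3 (1.19). The second was kept in every alternative and every omission tried, though at 1.19 after centring and 1.17 with the mean of the probe sets. With 0.1 uM GSK436 HRK read 92.57 and 33.63 (1.13 ± 0.42, adjusted p = 0.0534), a pair of arrays that differ widely and overlap DMSO. With 10 nM GSK212 (45.28, 70.44 and 34.77), 30 nM GSK212 (31.1 and 6.97) and 10 nM GSK212 with 0.1 uM GSK436 (45.4, 49.26 and 30.98) the log2 folds were 0.92, -0.56 and 0.71, none called. A further HRK probe set, 237187_at, was called in 3 treatments. It read 18.48, 21.95 and 22.74 with DMSO, 91.67 and 66.86 with 0.1 uM GSK436, 61.59 and 73.91 with 1 uM, and 61.57, 58.94 and 71.44 with 10 nM GSK212 and 1 uM GSK436. Their log2 folds were 1.77, 1.56 and 1.49, and the arrays of each lay above DMSO. With GSK212 alone it read 12.77 to 43.02 and overlapped DMSO, and with 10 nM GSK212 and 0.1 uM GSK436 it read 28.16 to 38.54, above DMSO, with no call in these 3 treatments. Of the other 3 HRK probe sets, 229552_at was called at 0.1 uM GSK436 (2.90), and 206863_x_at and 206865_at exceeded the filter level on only 2 and 8 arrays.

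PMAIP1 encodes NOXA, a BH3-only protein that binds MCL1 and speeds its loss, and it was called lower in all 6 comparisons. The parental DMSO arrays read 826.49, 847.06 and 979.51. GSK436 gave 208.45 and 128.45 at 0.1 uM, and 416.6 and 351.14 at 1 uM. GSK212 gave 57.48, 79.3 and 126.8 at 10 nM, and 127.46 and 97.78 at 30 nM. All of these arrays were below all DMSO arrays, and the higher GSK436 dose read above the lower one. The combination with 0.1 uM GSK436 gave 116.63, 169.8 and 167.01, and that with 1 uM gave 313.73, 216.69 and 389.83. These too lay below DMSO without overlap. Log2 folds were -2.41 ± 0.24 and -1.20 ± 0.24 for 0.1 and 1 uM GSK436 (limma adjusted p = 7.4e-09 and 0.000403). They were -3.36 ± 0.22 and -2.95 ± 0.24 for 10 and 30 nM GSK212 (adjusted p = 5.8e-14 and 4.24e-11). The combinations gave -2.54 ± 0.22 and -1.56 ± 0.22 (adjusted p = 6.71e-11 and 1.48e-06). After centring the fold was lower by over 1.5 times with 0.1 uM GSK436 (-3.15), 1 uM GSK436 (-1.83) and 10 nM GSK212 with 1 uM GSK436 (-2.17), and with the mean of both probe sets it was -2.36 at 30 nM GSK212. The other PMAIP1 probe set, 204286_s_at, was called lower in all 6 comparisons as well (-2.48 to -1.55). It read 350.8, 463.98 and 173.18 with DMSO and 33.71 to 132.08 over the 15 drug arrays, and its arrays at 0.1 and 1 uM GSK436 overlapped.

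BCL2L11, which encodes BIM, an activator that binds all survival proteins and whose protein is cleared after ERK phosphorylation, was not called through the probe set that stands for it. It read 141.66, 171.09 and 174.56 with DMSO. Readings with GSK436 were 299.13 and 228.55 at 0.1 uM, and 201.17 and 279.37 at 1 uM. Those with GSK212 were 242.71, 219.15 and 178.27 at 10 nM, and 224.45 and 210.82 at 30 nM. All 15 drug arrays were above the 3 DMSO arrays, the lowest by a small margin. The combinations gave 336.16, 182.46 and 225.0, and 349.31, 203.63 and 208.04. Log2 folds ranged from 0.38 to 0.68 with adjusted p of 0.0525 or more, and after centring they ranged from -0.09 to 0.13 with both signs. Another BCL2L11 probe set, 1553088_a_at, was called higher with both GSK436 doses (1.38 ± 0.43 and 1.17) and both combinations (1.11 and 1.40), with an adjusted p of 0.0208 at 0.1 uM. It read 35.09, 23.4 and 65.64 with DMSO against 97.52 and 110.0 with 0.1 uM GSK436, and 118.35, 122.88 and 79.04 with 10 nM GSK212 and 1 uM GSK436. With 10 nM GSK212 and 0.1 uM GSK436 it read 53.03 to 165.17 and overlapped DMSO. The 7 probe sets did not move as one: 5 were above 0 in each comparison, and all but 1553088_a_at were called in none. The probe set 208536_s_at, above the filter level on only 3 arrays, ran from -1.57 to 1.29.

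BAD, a sensitiser whose protein is switched off by phosphorylation, and BID, which links death receptors to mitochondria once caspase 8 has cut it, differed by less than the 2-fold limit. BAD read 213.75, 204.66 and 187.74 with parental DMSO and 191.46 to 485.55 over the 15 drug arrays. Its log2 folds were 0.35 to 0.86, of which 3 had an adjusted p under 0.05 (0.0279, 0.0383 and 0.0124) and none the required size, and after centring they ran from -0.09 to 0.30, the sign turning at 10 nM GSK212 with 0.1 uM GSK436. All 3 BAD probe sets were above 0 in each comparison, with 1861_at called at 1 uM GSK436 (1.04), and 1861_at (1.13) and 232660_at (1.24) at 10 nM GSK212 with 1 uM GSK436. BID read 369.62, 374.77 and 359.65 with DMSO and 177.01 to 297.42 over the drug arrays, every one of which was below every DMSO array. This did not hold for the BID probe set 227143_s_at. That one read 150.45 to 201.96 with DMSO and 190.34 to 227.38 with 0.1 uM GSK436, a log2 fold of 0.24. By the probe set that stands for BID, log2 folds were -0.76 to -0.46, none of the required size. The lowest was at 10 nM GSK212 with 1 uM GSK436 (limma adjusted p = 0.000945). After centring BID was called lower in 3 of the 6 comparisons, at -1.31, -1.18 and -1.37 for 0.1 uM GSK436, 1 uM GSK436 and 10 nM GSK212 with 1 uM GSK436. In the last of these the probe set 204493_at was called as deposited (-1.12).

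**Figure D2:**
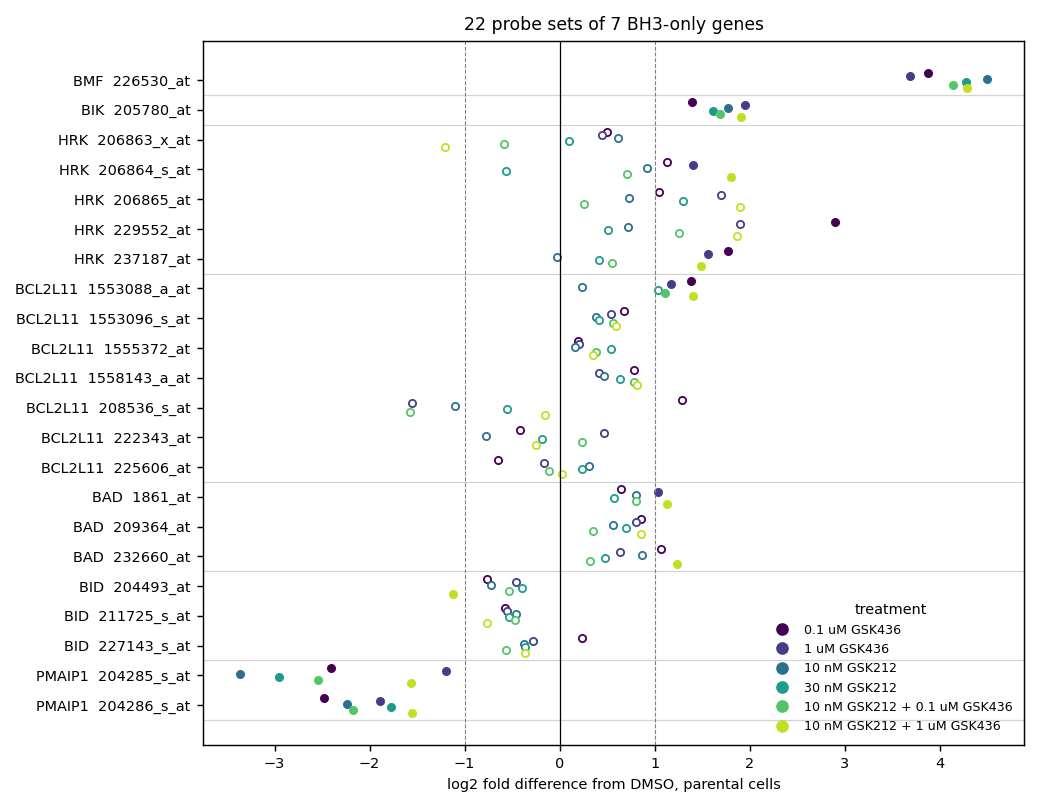
Log2 fold difference from DMSO in parental cells for each of the 22 probe sets, coloured by treatment, filled where called, with dashed lines at -1 and 1. BMF and BIK lie right of 1 in all 6 treatments, both PMAIP1 probe sets lie left of -1, and the probe sets of BCL2L11 and HRK scatter on both sides of 0.

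Signals of several members also moved with the quality of the arrays. Over all 38 arrays the Pearson r with the log2 actin ratio was 0.34 for BMF, 0.27 for BIK, -0.25 for PMAIP1 and 0.07 for HRK, and 0.55, 0.52 and -0.38 for BCL2L11, BAD and BID. The r with the log2 median signal of the array was larger, at 0.73 for BMF, 0.55 for BIK, -0.59 for PMAIP1, 0.72 for BCL2L11, 0.81 for BAD and -0.82 for BID. The arrays share treatments and lines, so that these values are descriptions only. On the 6 parental drug arrays with an actin ratio up to 20, BMF read 300.85 to 422.22, BIK 210.11 to 402.12 and PMAIP1 57.48 to 216.69, all outside the DMSO range. Without the 15 arrays of a high ratio, BMF gave 4.39, 4.16, 4.11 and 4.46 for 10 nM GSK212, 30 nM GSK212 and the combinations, BIK gave 1.93, 1.36, 1.79 and 2.29, and PMAIP1 gave -3.32, -2.76, -2.37 and -2.01. All 13 calls of these 4 comparisons were kept. For 30 nM GSK212 and for 10 nM GSK212 with 1 uM GSK436 only replicate 2 remained there, and that lone array was assumed to vary like the other groups. The 2 parental comparisons of GSK436 alone have no array left there. With the log2 actin ratio as a covariate over all arrays, the same 20 calls were made in parental cells, and with 0.1 and 1 uM GSK436 BMF gave 3.31 and 3.22, BIK 1.38 and 1.94, and PMAIP1 -2.17 and -1.01. Within those 2 comparisons a high ratio and the drug cannot be told apart.

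**Figure D3:**
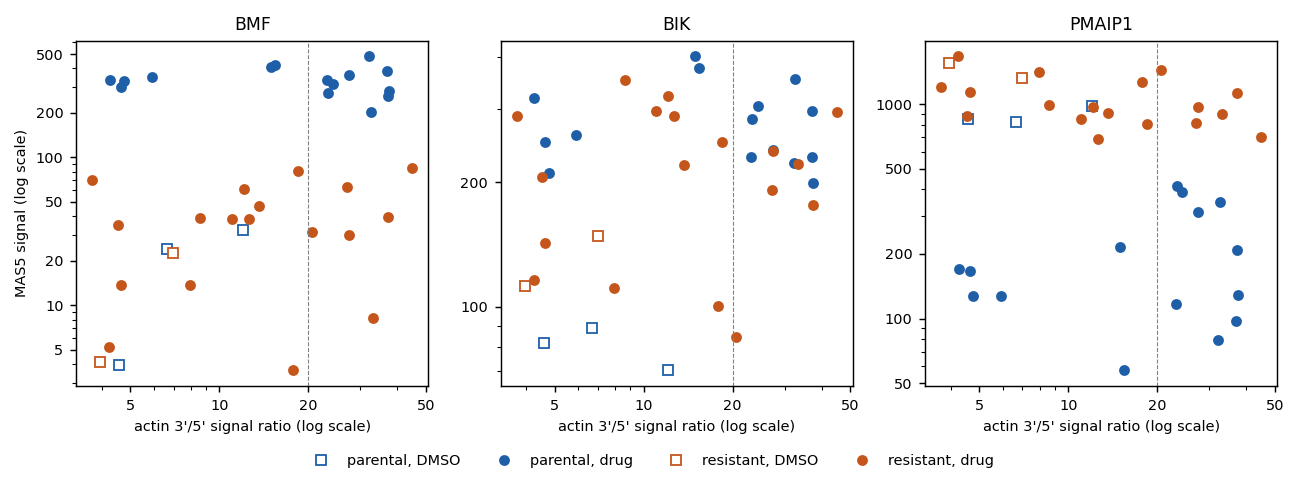
MAS5 signal of BMF, BIK and PMAIP1 against the actin 3′ to 5′ ratio of the same array (both on log scales), with squares for DMSO, circles for drugs and a dashed line at a ratio of 20. The 6 parental drug arrays left of the line and the 9 right of it lie on the same side of the parental DMSO arrays for each gene.

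COL1A1, 1 of 5 fibroblast and endothelial markers, was also higher in all 6 parental treatments (1.65 to 2.99) and in the 4 resistant treatments with GSK212 (2.32 to 2.86). The summed signal of the 5 markers was 88.8 to 194 on the parental DMSO arrays and 272 to 638 on the parental drug arrays, while COL3A1 did not exceed 97.02 and VWF 46.33 on any array. The 3 leukocyte markers that passed the filter summed to 23.3 to 77.4 with parental DMSO and 39.5 to 214 with drugs, with PTPRC called higher at 1 uM GSK436 (1.95). Among epithelial markers KRT18 was lower at 30 nM GSK212 (-1.50) and at 10 nM GSK212 with 0.1 uM GSK436 (-1.08), and EPCAM and CDH1 did not exceed 51.75. The 4 epithelial markers, mostly KRT8 and KRT18, summed to 5440 to 8700 with parental DMSO and 2420 to 5600 with drugs, and the 10 melanocyte markers to 2570 to 3260 and 3460 to 5800. The part of these markers in the results was not tested.

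In the resistant clone, 1 of 42 pairs of a member and a treatment was called against DMSO, beside 2.83% of all pairs. The treatments called 0.00554% of genes at 0.1 uM GSK436, 0.072% at 1 uM, 2.53% and 3.86% at 10 and 30 nM GSK212, and 4.41% and 6.09% with the combinations. The called member was BIK with 10 nM GSK212 and 1 uM GSK436. Medians over the 7 members were 0.12, 0.03, 0.06, 0.29, 0.23 and 0.39, and over all genes 0.10, 0.05, 0.17, 0.22, 0.22 and 0.21, in the same order of treatments. These comparisons share 2 DMSO arrays. KRT8 was higher in the clone with the 4 GSK212 treatments (1.12 to 1.52) and with DMSO against parental cells (1.65), and its part in the results was not tested.

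BIK read 147.76 and 112.47 with resistant DMSO. GSK436 gave 142.15, 100.2 and 176.47 at 0.1 uM, and 84.65, 111.04 and 115.81 at 1 uM. GSK212 gave 238.02, 219.58 and 191.39 at 10 nM, and 294.65, 289.17 and 206.14 at 30 nM. The GSK436 arrays overlapped DMSO and the GSK212 arrays lay above it. The combinations gave 220.82, 249.93 and 296.96 with 0.1 uM GSK436, and 288.91, 352.32 and 321.97 with 1 uM. The last of these was called (1.29 ± 0.26, limma adjusted p = 0.000922), and the call was lost after centring (0.87) and without resistant DMSO replicate 2 (1.10). At 30 nM GSK212 the log2 fold was 1.00 (1.99-fold, adjusted p = 0.0188), and with 10 nM GSK212 and 0.1 uM GSK436 it was 0.96 (adjusted p = 0.0215), both just under the size required. At 10 nM GSK212 it was 0.73 (adjusted p = 0.151), and with GSK436 alone 0.08 and -0.32.

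BMF stayed low in the clone under every treatment. It read 22.73 and 4.13 with DMSO, 13.78, 3.65 and 39.43 with 0.1 uM GSK436, and 31.2, 13.66 and 5.21 with 1 uM. With GSK212 it read 29.95, 46.75 and 63.02 at 10 nM, and 84.85, 38.27 and 35.15 at 30 nM. The arrays with GSK436 alone overlapped DMSO and those with GSK212 alone were above it. With 10 nM GSK212 it read 8.22, 81.1 and 38.37 beside 0.1 uM GSK436, and 70.35, 39.13 and 61.06 beside 1 uM. The former combination overlapped DMSO and the latter lay above it. The highest of the 18 resistant drug arrays, 84.85, was below the lowest of the 15 parental drug arrays, 202.83. Log2 folds were 0.31 with either GSK436 dose, 1.83, 1.95 and 1.34 with GSK212 at 10 nM, at 30 nM and at 10 nM with 0.1 uM GSK436 (adjusted p = 0.189, 0.12 and 0.351), and 2.13 ± 0.70 with 10 nM GSK212 and 1 uM GSK436 (limma adjusted p = 0.0575). The last became a call in 5 of 14 alternatives, with adjusted p from 0.0185 to 0.158 over them, and in 7 of 38 fits that left out 1 array. All 6 values rest on the 2 DMSO arrays. They ran from 1.25 to 3.07 without resistant DMSO replicate 1 and from -0.63 to 1.19 without replicate 2.

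PMAIP1 in the clone read 1322.36 and 1552.58 with DMSO. With GSK436 it read 1137.97, 1265.52 and 1124.21 at 0.1 uM, and 1433.26, 1403.36 and 1666.84 at 1 uM. With GSK212 it read 966.67, 911.52 and 811.59 at 10 nM, and 701.68, 689.09 and 884.16 at 30 nM. By the probe set that stands for it, all groups but 1 uM GSK436 lay below DMSO, and none came down to the parental drug range. The combinations gave 902.56, 809.88 and 851.64, and 1203.22, 990.81 and 966.87. Log2 folds ran from -0.92 to 0.06. The lowest, -0.92 ± 0.24 at 30 nM GSK212 (limma adjusted p = 0.0187), missed the size required, and the others had adjusted p of 0.0681 or more. After centring PMAIP1 was called lower in the clone at 30 nM GSK212 (-1.39) and with 10 nM GSK212 and 0.1 uM GSK436 (-1.15), and without resistant 30 nM GSK212 replicate 3 the former was called too (-1.04). The other PMAIP1 probe set, 204286_s_at, read 451.24 and 997.53 with resistant DMSO and 211.92 to 1099.16 over the resistant drug arrays. Each of its drug groups overlapped DMSO, and none was called.

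The other members were not called in the clone. HRK read 123.36 and 95.42 with DMSO and 97.56 to 180.97 over the drug arrays, with log2 folds of 0.06 to 0.61. BCL2L11 read 187.69 and 165.51 with DMSO and 154.11 to 250.05 with drugs (0.03 to 0.30, and -0.37 to -0.04 after centring). BAD read 166.64 and 134.25 with DMSO and 120.65 to 302.74 with drugs (-0.11 to 0.64). BID read 502.28 and 606.78 with DMSO and 329.7 to 585.99 with drugs. Its log2 folds were -0.69 to -0.13, and the lowest, at 10 nM GSK212 with 1 uM GSK436, had an adjusted p of 0.015 and became a call after centring (-1.12).

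**Figure D4:**
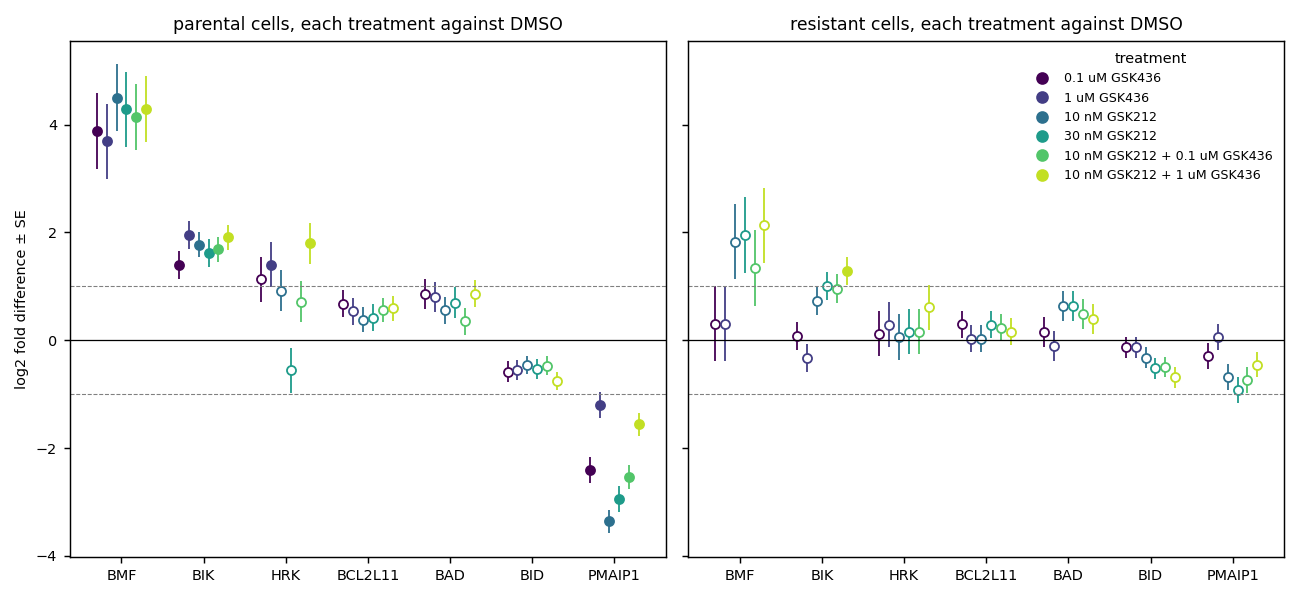
Log2 fold difference from DMSO with its SE for the 7 members under 6 treatments, in parental cells on the left and resistant cells on the right, filled where called, with dashed lines at -1 and 1. The parental panel holds 20 filled points and the resistant panel 1, for BIK with 10 nM GSK212 and 1 uM GSK436.

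With DMSO alone the lines differed in 1 member, HRK, beside 3.44% of all genes. HRK read 18.75, 18.72 and 39.26 in parental and 123.36 and 95.42 in resistant cells, without overlap, a log2 difference of 2.05 ± 0.42 (4.14-fold, limma adjusted p = 0.00186). Because 2 of the parental arrays lie below the pooled median of 34.88, the size depends on the constant added, with 2.18 for none and 1.79 for 9.88. The call was lost with only the groups compared in the fit and without resistant DMSO replicate 1 (1.87). The HRK probe set 237187_at was called too (1.44; 2.46% of all probe sets), with 62.61 and 61.08 in the clone. Over all treatments HRK read 95.42 to 180.97 on the 20 resistant arrays and 6.97 to 115.42 on the 18 parental arrays. Among the other members PMAIP1 gave 0.70 ± 0.24 (limma adjusted p = 0.13), BIK 0.67 (adjusted p = 0.212) and BID 0.58 (adjusted p = 0.0848), none called. BMF gave -0.48 (adjusted p = 0.905), BAD -0.42 (adjusted p = 0.654) and BCL2L11 0.12 (adjusted p = 0.942). The median over the 7 members was 0.58 and over all genes -0.10.

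Whether the same treatment changed a member differently in the lines was tested as the resistant change minus the parental change. Of 42 such differences 9 were called, 5 above and 4 below 0, beside 2.77% of all pairs (1.41% above and 1.36% below), and they lay in BMF, BIK and PMAIP1. By treatment, 3 members were called at 0.1 uM GSK436 (3.47% of genes), 3 at 1 uM GSK436 (9.32%), 1 each at 10 nM GSK212 (1.58%), 30 nM GSK212 (0.686%) and 10 nM GSK212 with 0.1 uM GSK436 (0.664%), and 0 with 1 uM GSK436 in the combination (0.913%). For BMF the difference was -3.57 ± 0.98 at 0.1 uM GSK436 and -3.38 ± 0.98 at 1 uM (limma adjusted p = 0.0394 and 0.0286). Neither was called without resistant DMSO replicate 1 (-2.63 and -2.44) or parental DMSO replicate 2 (-2.84 and -2.65), and without resistant DMSO replicate 2 they were -4.51 and -4.32. With GSK212 present it was -2.66, -2.32, -2.80 and -2.16, none called (adjusted p = 0.223 to 0.66). For BIK it was -1.31 ± 0.37 and -2.27 ± 0.37 with GSK436 alone (adjusted p = 0.0431 and 0.00012) and -1.04 to -0.61 otherwise, none called. For PMAIP1 it was 2.12 ± 0.34 and 1.26 ± 0.34 with 0.1 and 1 uM GSK436 (adjusted p = 0.00019 and 0.0179), 2.68 ± 0.32 and 2.03 ± 0.34 with 10 and 30 nM GSK212 (adjusted p = 2.44e-06 and 0.00109), and 1.80 ± 0.32 with 10 nM GSK212 and 0.1 uM GSK436 (adjusted p = 0.00248). The remaining combination gave 1.11 (adjusted p = 0.133). These values are of the probe set that stands for PMAIP1. The other PMAIP1 probe set was not called with 0.1 uM GSK436, with either GSK212 dose alone or with either combination. HRK differences were -1.19 to 0.72, and those of BCL2L11, BAD and BID -0.91 to 0.45, none called.

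Comparisons of drugs, doses and combinations with each other within a line gave 5 calls of 98 pairs, beside 1.03% of all pairs. In parental cells PMAIP1 made up 3 of them. It was higher with 10 nM GSK212 and 1 uM GSK436 than with 10 nM GSK212 alone (1.80 ± 0.22, limma adjusted p = 2.58e-06; 0.316% of genes called), higher with 1 than with 0.1 uM GSK436 (1.21 ± 0.26, adjusted p = 0.0326; 0.244%), and higher with 1 uM GSK436 than with 10 nM GSK212 (2.16 ± 0.24, adjusted p = 6.59e-07; 0.703%). Groups did not overlap in any of these 3 calls, which rest on the probe set that stands for PMAIP1. All were lost with only the groups compared in the fit, the first also without the arrays of a high actin ratio, and the second also after centring, with the mean of the probe sets, without the variance trend, and without parental 0.1 uM GSK436 replicate 3 (0.87), parental 1 uM GSK436 replicate 2 (1.09) or replicate 3 (1.33). The third was 1.25 with the mean of both probe sets. Adding 0.1 uM GSK436 to GSK212 gave 0.82 (adjusted p = 0.576), and adding 10 nM GSK212 to 1 uM GSK436 gave -0.36 (adjusted p = 0.717). By that probe set the fall of PMAIP1 was thus smaller in the groups with 1 uM GSK436 than with 10 nM GSK212 alone. The other, 204286_s_at, read 37.06 to 91.93 with 10 nM GSK212 and 84.16 to 132.08 with 10 nM GSK212 and 1 uM GSK436. With 0.1 and 1 uM GSK436 alone it read 33.71 to 80.34 and 56.94 to 112.03. Its groups overlapped in each of the 3 comparisons.

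In the clone BIK was higher with 10 nM GSK212 and 1 uM GSK436 than with 1 uM GSK436 alone (1.61 ± 0.23, limma adjusted p = 7.42e-06; 5.18% of genes called), which held in every alternative and omission tried. It was lower with 1 uM GSK436 than with 10 nM GSK212 (-1.05 ± 0.23, adjusted p = 0.0068; 2.08%). That call was lost after quantile normalization, after centring, with the larger pseudocount of 9.88, without the arrays of a high actin ratio, and without resistant 1 uM GSK436 replicate 1 (-0.91) or resistant 10 nM GSK212 replicate 1 (-0.98). No comparison of this kind was called for BMF. In parental cells its values ran from -0.81 to 0.60, and in the clone the largest was 1.82 for 10 nM GSK212 and 1 uM GSK436 against 1 uM GSK436 (adjusted p = 0.073). HRK read lower with 30 than with 10 nM GSK212 in parental cells (-1.49 ± 0.42, adjusted p = 0.728), which was not called.

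Ordered by group mean, BMF ran from 13.4 in resistant DMSO to 419 in parental cells with 10 nM GSK212. The 8 lowest groups were parental DMSO and all 7 resistant groups, each overlapping the next, with means of 13.4 to 56.8, and the 6 parental drug groups followed from 239 upwards. Within those only the step between the GSK436-alone groups and the others separated arrays. PMAIP1 ran from 87.9 in parental cells with 10 nM GSK212 to 1500 in resistant cells with 1 uM GSK436. Its 6 lowest groups were the parental drug groups, with 1 uM GSK436 alone (mean 384) and in combination (307) above the other 4 (87.9 to 168) without overlap. In the probe set 204286_s_at these groups did overlap. Parental DMSO (884) stood among the resistant groups with GSK212. BIK ran from 80.3 in parental DMSO to 321 in resistant cells with 10 nM GSK212 and 1 uM GSK436. Its 4 lowest groups were both DMSO groups and the resistant groups with GSK436 alone, below the remaining 10 without overlap at that step. HRK ran from 19 in parental cells with 30 nM GSK212 to 168 in resistant cells with 10 nM GSK212 and 1 uM GSK436, with the 7 parental groups below the 7 resistant ones by mean and each group overlapping the next.

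The genes whose 14 group means of log2 signal tracked a called member most closely were found over all 18063 genes. For BMF they were KIF13A (Pearson r = 0.992), HGSNAT (0.991) and NFE2 (0.989). For PMAIP1 they were KCTD15 (0.97), RBM17 (0.957) and DDX19A (0.956). For BIK they were SELENOM (0.968), PDLIM1 (0.967) and MXRA7 (0.964), and for HRK they were PTPRD-AS1 (0.927), WWC1 (0.926) and LRP3 (0.925). The 14 means share lines and treatments, and the best of many genes is bound to be high.

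Among the partners of the BH3-only proteins, MCL1, the short-lived survival protein that NOXA binds, was the only 1 of 6 measured survival genes called against DMSO. In parental cells its mean signal was 3280 with DMSO and 1050 to 1360 with drugs, with log2 folds of -1.28, -1.26, -1.45, -1.55, -1.64 and -1.37, all called (limma adjusted p of 1.13e-07 or less). In the clone it read 2830 on average with DMSO, and log2 folds were 0.16, -0.17, -0.32, -0.63, -0.67 and -0.79, none of the size required. The medians over the 6 survival genes were -0.34 to 0.40 in parental and -0.61 to 0.17 in resistant cells. The difference between the lines in the change of MCL1 was called for both GSK436 doses and 10 nM GSK212 (1.44, 1.09 and 1.13), not for the rest (0.58 to 0.97). Of the effectors BAX, BAK1 and BOK, 0 of 3 were called in any of the 12 comparisons with DMSO, with medians of -0.41 to 0.69. Of 6 other genes with a BH3 motif, BCL2L13 alone was called, higher at 30 nM GSK212 (1.19) and at 10 nM GSK212 with 0.1 uM GSK436 (1.01) in parental cells. Beside these counts, 9.22% to 18.3% of all genes were called by parental comparison with DMSO, and 0.00554% to 6.09% in the clone.

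Downstream of the mitochondria, 8 of 10 listed genes of the apoptosome and caspases were measured, and between 1 and 2 were called in each parental comparison, where 9.22% to 18.3% of all genes were called, and 0 in the clone. Such counts of 8 are too small to be set against that share. CYCS, cytochrome c, was lower with 0.1 and 1 uM GSK436 and with 10 nM GSK212 plus 1 uM GSK436 (-1.19, -1.38 and -1.09). BIRC5 (survivin) was lower with 30 nM GSK212 (-1.17) and with 10 nM GSK212 plus 0.1 uM GSK436 (-1.13). CASP9, the caspase of the apoptosome, was higher with 10 nM GSK212 (1.13), and HTRA2, a protease released from mitochondria, with 10 and 30 nM GSK212 (1.09 and 1.03). Of 7 genes of the death receptor route, 1 to 3 were lower and 0 or 1 higher in each parental comparison, beside the same 9.22% to 18.3% of all genes. TNFRSF10A, a receptor for the death ligand TRAIL, was lower in all 6 (-2.91 to -1.20) and, in the clone, with 30 nM GSK212 (-1.02) and both combinations (-1.31 and -1.51). TNFRSF10B, the other such receptor, was lower in 5 of 6 parental comparisons (-1.24 to -1.07). TNFSF10, which encodes TRAIL, was higher with 1 uM GSK436 (2.80), 10 nM GSK212 (2.30) and 10 nM GSK212 plus 1 uM GSK436 (2.74), from a mean DMSO signal of 4.24, and FAS was lower with 1 uM GSK436 alone and in combination (-1.45 and -1.16).

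Of 11 genes listed as regulators of BIM and BMF, 0 to 2 were called in each direction in each parental comparison, and 0 or 1, always lower, in the clone. Over all genes 9.22% to 18.3% were called in either direction by parental comparison, and 0.00554% to 6.09% in the clone. FOXO3, a forkhead factor that activates death genes when growth signals are off, was higher with 10 and 30 nM GSK212 and with 10 nM GSK212 plus 0.1 uM GSK436 (1.27, 1.33 and 1.14) in parental cells. Its relative FOXO1 was higher in 4 parental comparisons (1.00 to 1.32). MYC was lower in all 6 (-3.49 to -2.66) and EGR1, an early response gene, in 2 (-1.97 and -2.07), as well as with 10 and 30 nM GSK212 in the clone (-2.65 and -2.45). The 15 genes of the ERK output list were nearly all lower in parental cells, 12 to 15 of 15 by comparison, with medians of -3.48 to -2.38. In the clone 0 of 15 were lower with GSK436 alone (medians -0.18 and -0.39) and 11 to 14 with GSK212 present (medians -3.53 to -2.39).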

How the data were processed

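Signal intensities of 54675 probe sets were deposited by the authors. They are MAS5 values per the submitters' processing notes, the version not given in the sources used here, with linear values of 0.02 to 90603.16. Probe sets were named from the platform annotation: 41097 name 1 gene, 1801 several and 11777 none, the last 2 kinds left out, and 41043 symbols matched RefSeq (0 updated). Probe sets above the pooled median of 34.88 on at least 2 arrays were kept (35888), and log2 of the signal plus 2.8, the 10th percentile, went into limma 3.58.1 (R 4.3.3; 14 group means, 24 residual degrees of freedom, eBayes with trend). The 33 comparisons were adjusted by Benjamini-Hochberg within each, and the procedure was tested on simulated data. Arrays of a group correlated at r of 0.846 to 0.937 over 34 pairs, none identical. Their number limits the precision. All 8 members are named with all their probe sets. Of each other gene list the counts, medians and at most 4 called genes are given, those with the largest folds. The members and lists were chosen with earlier results of these data known. Alternatives covered normalization, pseudocount, filter, probe set choice, variance model, samples in the fit, replicate block, RNA quality, array weights and each array left out. Figures were drawn with matplotlib 3.10.9.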

Additional observations from a re-analysis of the deposited data

Results flagged for a closer look

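The change of 3 members differed between the lines by a direct test of the resistant change minus the parental change. For GSK436 alone no fit without the arrays of a high actin ratio could be made, because every such parental array has one. In parental cells a high ratio and GSK436 alone cannot be told apart. For BMF the difference was -3.57 with 0.1 uM GSK436 and -3.38 with 1 uM GSK436. Both calls were lost after centring (-3.17 and -2.94), without a pseudocount, without the variance trend and with only the groups compared in the fit. The first was lost without any 1 of 6 arrays, parental DMSO replicate 2 (-2.84), parental 0.1 uM GSK436 replicates 2 (-3.63) and 3 (-3.51), resistant DMSO replicate 1 (-2.63), and resistant 0.1 uM GSK436 replicates 1 (-3.57) and 2 (-2.89). The second was lost without parental DMSO replicate 2 (-2.65), parental 1 uM GSK436 replicates 2 (-3.16) and 3 (-3.59), resistant DMSO replicate 1 (-2.44) and resistant 1 uM GSK436 replicate 3 (-2.86).

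For PMAIP1 the difference was 2.12 with 0.1 uM GSK436, 1.26 with 1 uM GSK436, 2.68 with 10 nM GSK212, 2.03 with 30 nM GSK212 and 1.80 with 10 nM GSK212 plus 0.1 uM GSK436. The first and the third were kept in every alternative and omission tried. The other PMAIP1 probe set was called in neither of them, nor in the last 2 comparisons. The call at 1 uM GSK436 was lost after quantile normalization and without parental 1 uM GSK436 replicate 3 (1.14) or resistant DMSO replicate 1 (1.15), and the last 2 were lost after centring (1.96 and 1.83).

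For BIK the difference was -1.31 with 0.1 uM GSK436 and -2.27 with 1 uM GSK436. The first was lost in 5 of 13 alternatives, among them centring (-0.92), and without any 1 of 13 single arrays, with values of -1.51 to -1.10. The second was kept in every alternative and omission tried, which did not include the fit without the arrays of a high actin ratio.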

How the results depend on the processing

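Over 14 alternatives and 38 fits that each left out 1 array, 0 called results changed sign. Values that were not called did, as given for BAD, BCL2L11 and BMF. Called members in parental comparisons with DMSO numbered 20 and ran from 19 to 22 over both kinds, beside 13 of 13 in the 4 comparisons left without the arrays of a high ratio. In the clone the 1 call became 3 after centring (0 of them higher, 0 shared), 2 without a pseudocount, with a filter at 128.16, with 1 probe set a gene or with the actin ratio as a covariate, 3 without the arrays of a high ratio and 4 with array weights. Leaving out arrays gave 0 to 4, with 0 without resistant DMSO replicate 2. The DMSO difference between lines went from 1 to 0 with only the groups compared, and ran from 0 to 1 over omissions, with 0 without resistant DMSO replicate 1. Line differences fell from 9 to 4 after centring, rose to 12 with array weights, and ran from 5 to 9 over omissions, with 5 without resistant DMSO replicate 1. Calls among drugs, doses and combinations went from 5 to 3 after centring, 2 with only the groups compared and 9 with array weights, and ran from 4 to 7 over omissions.

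Replicate numbers did not pair the arrays: deviations from the group means correlated at a median r of 0.00236 for 105 pairs of equal number and -0.000926 for 204 others. With the replicate block the counts were 20, 1, 1, 8 and 5, and the line difference of BIK at 0.1 uM GSK436 was the call lost. Signals near background limit BMF with DMSO and in the clone, and HRK with parental DMSO, where the size of a fold rests on the pseudocount. The cause of the other shifts was not tested.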

Other observations

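Genes of the integrated stress response, in which ATF4 and CHOP (DDIT3) answer amino acid shortage and stress of the endoplasmic reticulum, were called most often in 3 of the 4 groups with 1 uM GSK436. Of 11 measured, 8 were higher with 1 uM GSK436 and 7 with 10 nM GSK212 plus 1 uM GSK436 in parental cells, against 1 to 3 with the other treatments. In the clone the counts were 2 and 8 with these treatments, and 0 to 3 with the others. Over all genes the share called in either direction was 18.3% and 16.1% with those treatments in parental cells and 9.22% to 16.7% with the others, and 0.072% and 6.09% in the clone against 0.00554% to 4.41%. CHAC1, a target of CHOP that breaks down glutathione, gave 5.06 and 4.47 in parental cells, and in the clone 4.07 in the combination and 3.25 with 1 uM GSK436 alone (limma adjusted p = 0.0754). ASNS, asparagine synthetase, gave 3.06 and 2.82 in parental and 1.94 and 2.72 in resistant cells, and between -0.58 and 0.02 with all other treatments. DDIT4, an inhibitor of mTORC1, was higher in the clone with 5 of 6 treatments (1.33 to 3.30), and ATF3 with 5 of 6 in parental cells (1.70 to 3.04) and the 4 with GSK212 in the clone (1.42 to 2.28). PMAIP1, a gene that ATF4 can also activate, was below DMSO in both parental groups with 1 uM GSK436. Whether these genes differ in number between treatments was not tested.

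Of 14 listed targets and members of the p53 family 10 were measured, and 1 or 2 were higher and 1 lower in each parental comparison. Over all genes 9.22% to 18.3% were called in either direction in these comparisons. TP53I3 was higher in all 6 (1.38 to 2.00), and PHLDA3, which like BBC3 and PMAIP1 is a p53 target, in 4 (1.02 to 1.37). GDF15 was lower with 10 and 30 nM GSK212 and with 10 nM GSK212 plus 0.1 uM GSK436 in parental cells (-3.21, -3.42 and -2.21) and with the 4 GSK212 treatments in the clone (-2.62 to -2.34). With DMSO its mean signal was 1690 in the clone and 102 in parental cells, a log2 difference of 4.02 ± 0.54.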
